A study of Homo sapiens with 12 samples.

Results

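The HOXA genes are the HOX genes of human chromosome 7, and 9 of them were described here across 4 lines made from SNU638, a human cell line established from gastric cancer. The 9 were HOXA2, HOXA3, HOXA5, HOXA6, HOXA7, HOXA9, HOXA10, HOXA11 and HOXA13, taken by symbol from the 17303 genes of the deposited table. They were chosen by their measured level, as HOXA genes that are expressed, with no stated threshold, so no test is made of a level. HOXA6, the lowest of the 9 in the control line, had 0.733 ± 0.197 TPM (a level scaled for transcript length and library total; SD, n = 3). HOXA4, which was not among the 9, had 0 to 11 counts in a library.

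SNU638 cells were infected with lentivirus and resistant clones were selected with puromycin as stable lines. One line carried a control hairpin (sh-control, genotype given as wt), and 3 lines each carried a different short hairpin RNA against SKA2 (sh-SKA2-1, sh-SKA2-2 and sh-SKA2-3, genotype given as SKA2 knockdown), called hairpins 1, 2 and 3 here. All 4 lines thus share the infection and the selection. Each line had 3 RNA-seq libraries. The labels do not say how many clones a line holds, or whether its 3 libraries came from separate cultures. The p-values therefore measure the spread between libraries, which may be technical, and a property of 1 stable line cannot be told apart from its hairpin.

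HOX genes encode homeodomain transcription factors that set position along the body axis, and in each cluster the order of the genes on the chromosome follows the order of their expression from head to tail. Polycomb complexes keep HOX clusters silent, whereas MLL complexes and retinoic acid are known to open them, and CTCF and cohesin divide the HOXA cluster into domains. HOX proteins bind DNA together with the TALE homeodomain proteins PBX and MEIS. In the gut, HOXA genes are known from the patterning of its mesenchyme and from the hindgut, where HOXA13 acts in its most posterior part.

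The 9 genes lie on the minus strand. In GENCODE v29 (GRCh38), HOXA2, the most 3′ of them, lies at chr7:27100354-27102811 and HOXA13, at the 5′ end, at chr7:27193503-27200106. Promoter windows, here the 250 bases before an RNA start, were taken from RefSeq (GRCh38.p14), where 8 of the 9 genes were matched with 15 windows in all. The 5 windows below show HOXA3, HOXA10 and HOXA13, which with HOXA5 had the smallest p in edgeR's test of any difference among the lines. Beside these stand HOXA7, which differed least, and HOXA2, the only one with a TGATTNAT match. HOXA6, whose fold changes were larger than those of HOXA10 with each hairpin, is not shown. All 5 windows are written 5′ to 3′ along the minus strand. Capitals mark matches, on either strand, to TATAAA, the core promoter motif, and to TGATTNAT, the composite site of PBX and HOX proteins. No member window held both. Of the genes not shown, the HOXA6 and HOXA11 windows held neither, and the HOXA9 window held TATAAA.
HOXA2, chr7:27102684-27102933: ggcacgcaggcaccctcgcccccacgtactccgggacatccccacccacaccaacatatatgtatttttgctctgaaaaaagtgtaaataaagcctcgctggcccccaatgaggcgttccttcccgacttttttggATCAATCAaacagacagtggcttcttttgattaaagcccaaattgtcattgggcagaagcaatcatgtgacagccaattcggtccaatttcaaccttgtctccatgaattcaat
HOXA3, chr7:27152584-27152833: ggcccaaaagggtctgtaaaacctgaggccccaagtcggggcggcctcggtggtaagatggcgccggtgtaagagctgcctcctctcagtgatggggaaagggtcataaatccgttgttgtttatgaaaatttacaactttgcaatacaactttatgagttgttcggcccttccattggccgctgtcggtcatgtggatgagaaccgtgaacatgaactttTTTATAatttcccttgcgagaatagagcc
HOXA7, chr7:27156676-27156925: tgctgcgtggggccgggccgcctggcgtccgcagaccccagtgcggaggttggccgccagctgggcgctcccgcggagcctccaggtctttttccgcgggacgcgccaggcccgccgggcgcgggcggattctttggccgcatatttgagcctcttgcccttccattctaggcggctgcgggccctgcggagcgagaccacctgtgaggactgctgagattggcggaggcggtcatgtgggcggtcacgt
HOXA10, chr7:27179862-27180111: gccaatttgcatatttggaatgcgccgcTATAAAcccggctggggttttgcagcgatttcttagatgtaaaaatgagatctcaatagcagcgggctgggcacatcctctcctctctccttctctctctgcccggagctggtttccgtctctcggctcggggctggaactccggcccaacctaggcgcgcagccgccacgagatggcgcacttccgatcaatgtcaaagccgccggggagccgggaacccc
HOXA13, chr7:27200092-27200341: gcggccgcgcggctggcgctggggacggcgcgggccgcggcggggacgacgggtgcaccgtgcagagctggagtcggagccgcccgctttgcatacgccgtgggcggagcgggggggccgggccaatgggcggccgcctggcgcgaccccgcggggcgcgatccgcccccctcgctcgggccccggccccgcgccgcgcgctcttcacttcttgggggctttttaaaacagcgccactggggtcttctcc

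TATAAA was present in 4 of the 15 member windows, against 10.7% of 35116 RefSeq windows of the same length. TGATTNAT was present in 1 of 15, against 2.48% of all windows. In the HOXA3 window the TATAAA match lay on the reverse strand and began 29 bases before the RNA start. In HOXA10 it began 222 bases before the start. The TGATTNAT match of HOXA2 lay on the reverse strand, 114 bases before the start. The windows also differed in their CG dinucleotides. HOXA13 held 40, more than 97.8% of all windows, HOXA7 held 28, HOXA10 held 19, HOXA3 held 11 and HOXA2 held 8, while the median of all windows was 11. GC content ran from 47.2% in HOXA2 to 78.0% in HOXA13, against a median of 58.0%. A match describes letters only. HOXA3 had 6 further windows inside its gene and HOXA10 had 1, so the window in use cannot be told from counts per gene.

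Libraries held between 14693343 and 16739155 expected counts. SKA2, the hairpins' target and part of a complex that links kinetochores to microtubules, averaged 120.5 ± 4.84 CPM (counts scaled to the library total) in the control line. It averaged 24.0 ± 1.86, 25.3 ± 1.93 and 26.6 ± 1.57 with hairpins 1, 2 and 3 (SD, n = 3 each), as the labels have it, and no difference between 2 hairpins was called (edgeR, adjusted p from 0.243 to 0.473). Epithelial markers summed to 1620 to 3760 TPM per library, whereas fibroblast, endothelial and leukocyte markers summed to at most 2.92, 0.18 and 1.78 TPM. Summed epithelial markers were lowest with hairpin 2, at 1620 to 1730 TPM against 3370 to 3760 in the control line. With that hairpin 6 of 7 epithelial markers were called lower, beside 37.8% of tested genes. Their part in the HOXA values was not tested. The first control library and the first hairpin 3 library stood apart from the other 2 of their line (chi-square per gene of 26.8 to 55.3 for pairs with 1 of them, against 1.7 to 7.08 for other pairs of a line). In bulk RNA, fewer cells that express a gene and less RNA per cell cannot be told apart. The 3 comparisons with the control line share its libraries.

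In TPM, which scales for transcript length and so permits comparison between genes, the control line was led by HOXA7 at 15.3 ± 3.03, HOXA5 at 12.6 ± 1.46 and HOXA10 at 11.4 ± 1.27, whose libraries overlapped from one gene to the next. HOXA3 at 7.38 ± 1.01 and HOXA11 at 6.53 ± 0.930 followed and overlapped each other. HOXA9 at 3.52 ± 0.503 and HOXA13 at 3.13 ± 0.688 formed a lower pair, and HOXA2 stood at 1.96 ± 0.341. Levels therefore did not follow the order of the genes on the chromosome in this line: the leading genes came from the middle of the cluster and from its 5′ part.

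With hairpin 1 the order was led by HOXA5 at 75.8 ± 2.35 TPM, then HOXA10 at 43.7 ± 2.48 and HOXA3 at 29.2 ± 1.42, and none of these overlapped its neighbour. HOXA13, HOXA7 and HOXA11 followed between 19.6 and 22.8 TPM and overlapped. With hairpin 3, HOXA5 at 53.0 ± 1.72 and HOXA10 at 40.6 ± 3.95 again led without overlap. HOXA7, HOXA3, HOXA13 and HOXA11 then lay between 16.1 and 23.8 TPM, each overlapping the next. With hairpin 2 the order was different. HOXA3 at 37.8 ± 1.57 and HOXA10 at 35.7 ± 3.67 led and overlapped, HOXA7 followed at 24.8 ± 0.374, and HOXA5 stood sixth at 16.2 ± 0.710. HOXA9, HOXA6 and HOXA2 were the lowest of the 9 in each hairpin line.

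**Figure D1:**
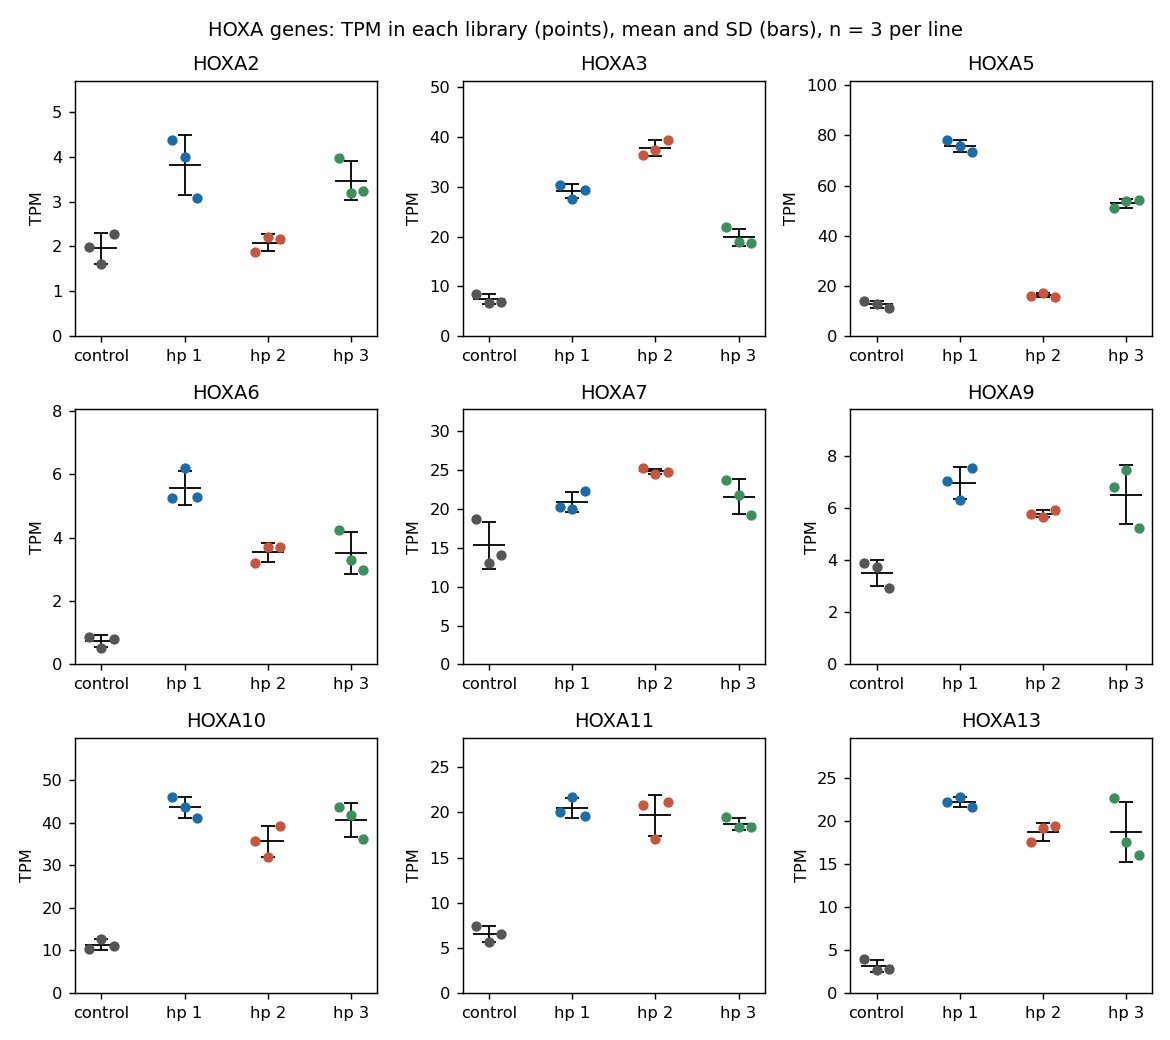
TPM of each HOXA gene in each library, 1 panel per gene in cluster order, with points for libraries, the long line for the mean and bars for the SD of 3 libraries; hp is hairpin. Every gene lies above the control libraries in each hairpin line, except HOXA2, which overlaps them with hairpin 2. HOXA5 averages 75.8 and 53.0 TPM with hairpins 1 and 3 and 16.2 with hairpin 2, against 12.6 in the control line.

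Against the control line, more HOXA genes rose than fell with each hairpin. The test was the quasi-likelihood F test of edgeR, with p-values adjusted by Benjamini and Hochberg's method over 12868 genes and a call at an adjusted p under 0.05. By this test 8 of the 9 were higher with hairpin 1, 6 with hairpin 2 and 9 with hairpin 3, and 0 were lower with any. Among all tested genes, 31.5%, 36.6% and 23.6% were called higher and 31.5%, 37.8% and 24.0% lower. The members' median log2 fold change was 1.55, 1.15 and 1.36, beside medians of 0.0059, -0.017 and 0.0086 over all tested genes. HOXA6 passed the filter on low counts only through the hairpin lines. Without it the counts were 7, 5 and 8 of 8, with medians of 1.41, 0.72 and 1.33. HOXA3, HOXA6, HOXA10, HOXA11 and HOXA13 were called higher with each hairpin, 5 of 9, against 13.9% of the tested genes. All 5 were also at least 2-fold up with each, against 1.92%. Without HOXA6 both counts were 4 of 8. In CPM, 7, 7 and 9 of the 9 had every hairpin library above every control library, and 0, 1 and 0 had every one below. Among tested genes those shares were 35.0%, 38.2% and 22.4% above and 34.2%, 38.8% and 23.7% below. In the test of any difference among the 4 lines all 9 were called, as were 87.7% of tested genes.

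Library make-up bears on these counts. On TPM values the median gene itself moved by 0.29, 0.33 and 0.12 on the log2(TPM + 1) scale with hairpins 1, 2 and 3, and 78.9%, 71.7% and 60.9% of calls were higher. In edgeR 4055 of 8114, 4712 of 9574 and 3036 of 6122 calls were. On that scale (limma) 9, 8 and 9 members were higher and 0 were lower. In edgeR with an offset for the trend of each library with transcript length, 9, 8 and 9 were likewise higher and 0 lower. Left without the first control and the first hairpin 3 library, the counts in edgeR were 7, 6 and 8. Fitted with only those 2 libraries for their lines, which leaves each line with 1 library and assumes that it varies like the others, they were 8, 5 and 7.

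**Figure D2:**
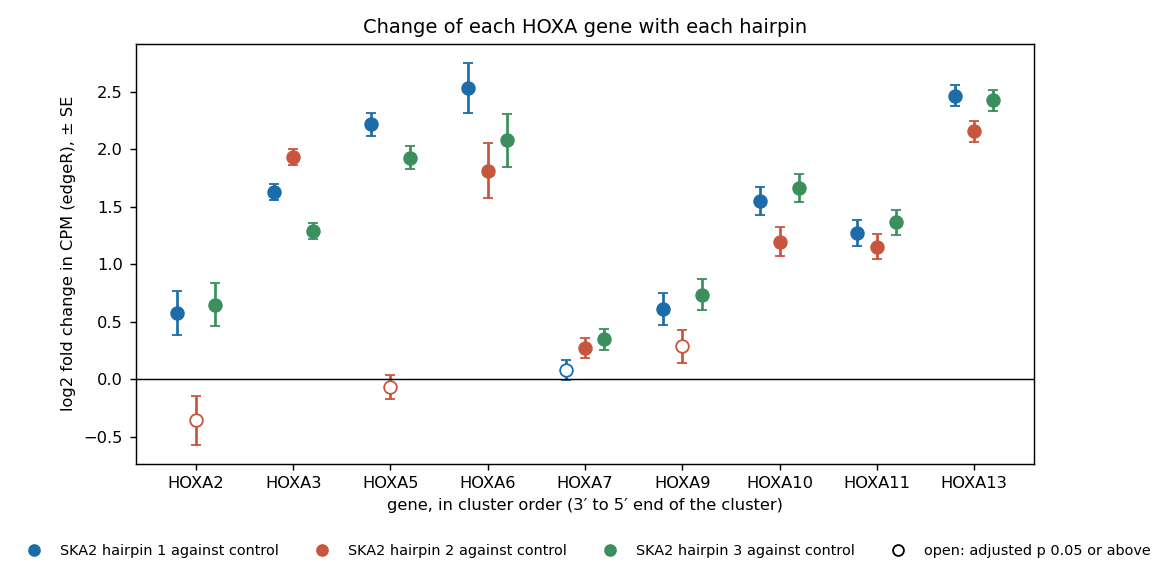
Log2 fold change in CPM of each HOXA gene with each hairpin against the control line, from edgeR, with bars for 1 standard error; genes are in cluster order and open circles have an adjusted p of 0.05 or above. HOXA13 lies between 2.16 and 2.46 with all hairpins, HOXA7 between 0.08 and 0.35, and HOXA5 at 2.21, -0.07 and 1.93.

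The anterior members were HOXA2 and HOXA3, at the 3′ end. HOXA3, which acts in the pharyngeal arches and their organs, measured 12.2, 11.4 and 12.4 CPM in the control libraries. It measured 39.0, 34.9 and 37.5 with hairpin 1, 45.5, 45.7 and 46.1 with hairpin 2, and 29.1, 28.7 and 30.0 with hairpin 3. The 4 lines did not overlap, and hairpin 2 gave the highest values. Log2 fold changes against the control line were 1.63 ± 0.071, 1.93 ± 0.071 and 1.29 ± 0.0712 (SE), with adjusted p of 1.54e-08, 1.82e-09 and 1.09e-07. HOXA3 exons are overlapped over 15.4% of their bases by opposite-strand genes and over 9.24% by genes on the same strand. The protocol names no step that keeps strand, so antisense reads cannot be told apart.

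HOXA2, which patterns the hindbrain and the second arch, was counted at 25 to 39 reads in the control libraries, so its values carry wide errors. It measured 1.71, 1.62 and 2.49 CPM in the control line and 3.33, 2.99 and 2.35 with hairpin 1, where 1 library lay inside the control range. Hairpin 2 gave 1.41, 1.61 and 1.52 CPM and hairpin 3 gave 3.12, 2.91 and 3.10. Only hairpin 3 lay wholly above the control libraries. The log2 fold change was 0.57 ± 0.19 with hairpin 1 (adjusted p = 0.0217), 0.65 ± 0.19 with hairpin 3 (0.0156) and -0.36 ± 0.21 with hairpin 2 (0.146). The hairpin 1 call was lost without any 1 of control libraries 1 and 2 or hairpin 1 libraries 1 and 2 (0.46 to 0.53, adjusted p 0.0629 to 0.087), and in DESeq2 it was 0.56 (0.0505). The hairpin 3 call was lost without control library 2 (0.53, adjusted p = 0.0677), and without the first control and first hairpin 3 library together (0.55, 0.0615). The hairpin 2 value turned to 0.07 in limma on log2(TPM + 1) and was not called there either.

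The middle members were HOXA5, HOXA6 and HOXA7. HOXA5, which acts in the lung and the gut and is known as an inducer of p53, showed the largest difference between hairpins of the 9. Its CPM was 11.91, 12.73 and 11.99 in the control line and 58.8, 55.9 and 55.4 with hairpin 1. With hairpin 2 it was 11.9, 12.2 and 10.9, and with hairpin 3 it was 39.7, 48.3 and 51.3. Hairpins 1 and 3 lay far above the control libraries, while hairpin 2 overlapped them. The log2 fold change was 2.21 ± 0.0994 with hairpin 1 (adjusted p = 1.73e-08) and 1.93 ± 0.0993 with hairpin 3 (5.69e-08), a rise of 4.64-fold and 3.80-fold. With hairpin 2 it was -0.07 ± 0.10 (0.577).

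The hairpin 2 value of HOXA5 changes with the scale. In the deposited TPM the hairpin 2 libraries, at 16.1, 17.0 and 15.7, lay above the control libraries, at 14.0, 12.7 and 11.1. In limma on log2(TPM + 1) its difference was 0.35 (adjusted p = 0.00286), and with an offset for the trend of each library with transcript length it was 0.45 (0.00022). Both are called and positive, and both stay far under the values of the other hairpins. The trend, in log2 per doubling of transcript length, was -0.329 to -0.0549 in the control libraries and 0.157 to 0.212 in those of hairpin 2. No gene on the opposite strand overlaps HOXA5 exons in the annotation.

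HOXA6, a neighbour of HOXA5 with a close homeodomain, was counted at 6, 4 and 7 reads in the control libraries. Counts were 31, 36 and 32 with hairpin 1, 18, 21 and 20 with hairpin 2, and 26, 24 and 23 with hairpin 3. Each hairpin library lay above the control libraries. The log2 fold changes of 2.53 ± 0.22, 1.81 ± 0.24 and 2.08 ± 0.23 had adjusted p of 4.55e-06, 3.13e-05 and 3.05e-05. Because the gene passed the filter on low counts only through the hairpin lines, these p-values are descriptive only. Opposite-strand exons, those of HOXA-AS3, cover 39.3% of its exon bases.

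HOXA7, known as a repressor of keratinocyte differentiation, changed least. It measured 19.9, 16.4 and 18.9 CPM in the control line and 18.9, 18.4 and 21.0 with hairpin 1, which overlapped. Hairpin 2 gave 23.3, 21.9 and 21.4, and hairpin 3 gave 23.1, 24.4 and 22.7, both above the control libraries. Log2 fold changes were 0.08 ± 0.09, 0.27 ± 0.0894 and 0.35 ± 0.089, with adjusted p of 0.459, 0.0159 and 0.00816. The hairpin 2 call was lost without control library 2 (0.19, 0.0752) or hairpin 2 library 1 (0.24, 0.0562). The hairpin 3 call was lost in a fit of those 2 lines alone (0.35, 0.0549). In limma on log2(TPM + 1) the hairpin 1 value was 0.44 and was called (0.0104). With the length offset in edgeR it was 0.34 and was also called (0.0116). Opposite-strand exons of HOXA-AS3 cover 62.5% of HOXA7 exon bases, the most of the 9, and their share of these counts was not tested.

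The posterior members were HOXA9, HOXA10, HOXA11 and HOXA13. HOXA13, the most 5′ gene of the cluster, which acts in the hindgut and the distal limb, measured 11.3, 9.05 and 10.3 CPM in the control line. It measured 56.7, 57.2 and 55.6 with hairpin 1, 44.3, 47.0 and 45.8 with hairpin 2, and 60.2, 53.4 and 51.6 with hairpin 3. Each hairpin library was above each control library by a wide margin. The rises were 5.51-fold, 4.46-fold and 5.37-fold, or 2.46 ± 0.0922, 2.16 ± 0.092 and 2.43 ± 0.0921 on the log2 scale, with adjusted p of 6.35e-09, 5.15e-09 and 8.24e-09. Over the alternatives tried its log2 fold change was at least 2.16, 1.79 and 2.26. Of its exon bases, 1.69% are overlapped by the opposite-strand HOTTIP.

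HOXA10, a regulator of the uterus and of blood progenitors, measured 14.3, 20.8 and 19.3 CPM in the control line, with the first library the lowest. It measured 56.2, 52.4 and 50.5 with hairpin 1, 43.0, 37.4 and 44.3 with hairpin 2, and 55.4, 61.2 and 55.6 with hairpin 3. Hairpin 2 lay between the control line and the other hairpins, without overlap. The log2 fold changes were 1.55 ± 0.13, 1.20 ± 0.13 and 1.66 ± 0.13, with adjusted p of 2.63e-06, 5.26e-06 and 1.51e-06.

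HOXA11, which acts in the uterus, kidney and forelimb, measured 10.9, 9.63 and 12.1 CPM in the control line. It measured 25.9, 27.5 and 25.4 with hairpin 1, 26.5, 21.0 and 25.2 with hairpin 2, and 26.0, 28.3 and 29.8 with hairpin 3. The hairpin lines overlapped each other in part and lay above the control line. Log2 fold changes were 1.27 ± 0.11, 1.15 ± 0.11 and 1.36 ± 0.11, with adjusted p of 4.79e-06, 2.62e-06 and 2.66e-06. The antisense gene HOXA11-AS overlaps 31.1% of HOXA11 exon bases.

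HOXA9, best known from MLL-rearranged leukaemia, had log2 fold changes between those of HOXA7 and HOXA10 with each hairpin, close to HOXA7 with hairpin 2. It measured 4.24, 4.78 and 4.08 CPM in the control line, 6.79, 5.97 and 7.29 with hairpin 1, 5.51, 5.21 and 5.27 with hairpin 2, and 6.83, 8.61 and 6.39 with hairpin 3. Every hairpin library was above the control libraries. The log2 fold change was 0.61 ± 0.14 with hairpin 1 (adjusted p = 0.00272) and 0.73 ± 0.14 with hairpin 3 (0.00123). With hairpin 2 it was 0.29 ± 0.14 (0.0861), which did not pass. The hairpin 2 value was called at 0.59 in limma on log2(TPM + 1) (0.00167) and at 0.65 in edgeR with the length offset (0.00108). HOXA9 and HOXA10 share 15.9% and 9.93% of their exon bases with genes on the same strand, among them a readthrough transcript, so reads there may belong to either gene. Opposite-strand exons of HOXA10-AS cover 13.9% of HOXA9 and 16.4% of HOXA10 exon bases.

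HOXA4 lay outside the 9. HOXA4 was counted at 1, 0 and 2 reads in the control libraries, 5, 2 and 6 with hairpin 1, 1, 2 and 1 with hairpin 2, and 6, 10 and 11 with hairpin 3. It did not pass the filter and was not tested.

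The 9 genes also differed among the hairpin lines, although no SKA2 difference among them was called. With hairpin 2 against hairpin 1, 1 of 9 was higher and 5 were lower, where 28.2% and 29.4% of tested genes were. In CPM, 2 lay wholly above and 6 wholly below, beside 37.5% and 39.2% of tested genes. HOXA5 fell by 2.28 ± 0.10 on the log2 scale (adjusted p = 1.38e-08), and HOXA2 by 0.93 ± 0.20 (0.00189). HOXA6, HOXA10 and HOXA13 fell by 0.72, 0.35 and 0.31, and HOXA3 alone rose, by 0.30 ± 0.0659 (0.00212). The HOXA10 call was lost without 1 of 4 libraries, namely hairpin 1 libraries 1 and 2 and hairpin 2 libraries 1 and 2 (-0.36 to -0.26, adjusted p 0.059 to 0.132). The HOXA13 call was lost in limma on log2(TPM + 1) (-0.24, 0.177).

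Hairpin 3 against hairpin 2 gave the converse pattern, with 5 of 9 higher and 1 lower, beside 33.4% and 31.9% of tested genes. In CPM, 6 lay wholly above and 1 wholly below, beside 34.8% and 34.0%. HOXA5 rose by 1.99 ± 0.0999 (adjusted p = 3.05e-08) and HOXA2 by 1.01 ± 0.20 (0.000912). HOXA10, HOXA9 and HOXA13 rose by 0.47, 0.45 and 0.27, and HOXA3 fell by 0.64 ± 0.0666 (6.86e-06). The calls of HOXA9, HOXA10 and HOXA13 were lost in limma on log2(TPM + 1), where HOXA13 turned to -0.01, and that of HOXA9 also with the length offset (0.23, 0.136), without hairpin 3 library 2 (0.31, 0.0609) and with only the first control and first hairpin 3 library (0.35, 0.0831).

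Hairpins 3 and 1 were close, with 0 of 9 higher and 1 lower, where 4.75% and 4.7% of tested genes were. In CPM, 1 lay wholly above and 3 wholly below, beside 16.7% and 17.3%. The gene called was HOXA3, which fell by 0.34 ± 0.0668 (adjusted p = 0.0127). That call was lost without any 1 of hairpin 1 libraries 1 and 3 or hairpin 3 library 2 (-0.34 to -0.31, adjusted p 0.0568 to 0.0671). HOXA5 gave -0.29 ± 0.0913 (0.0668) and HOXA7 gave 0.27 ± 0.0888 (0.0765), both short of the threshold. Without control library 1, HOXA5 was called lower (0.0454) and HOXA7 higher (0.0441), and without hairpin 3 library 1, HOXA7 was called higher at 0.29 (0.0337).

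Make-up of the HOXA transcripts followed these differences. The 9 TPM values summed to 62.5 ± 6.29 in the control line, 228.5 ± 5.23 with hairpin 1 and 164.3 ± 6.55 with hairpin 2, and to 174 to 198 in the libraries of hairpin 3. HOXA5 took 20.2% ± 1.21 of the sum in the control line, 33.2% ± 0.271 with hairpin 1, 9.91% ± 0.801 with hairpin 2 and 28.6% ± 2.66 with hairpin 3. HOXA3 took 11.8% ± 0.481, 12.8% ± 0.563, 23.0% ± 0.631 and 10.7% ± 0.442. HOXA7 fell from 24.3% ± 2.43 of the sum to 9.12% ± 0.743, 15.1% ± 0.601 and 11.6% ± 0.505, while its own level did not fall. HOXA13 took 4.97% ± 0.587 in the control line and 9.74% to 11.4% on average with the hairpins. These shares have no test, and a share moves whenever another gene does.

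**Figure D3:**
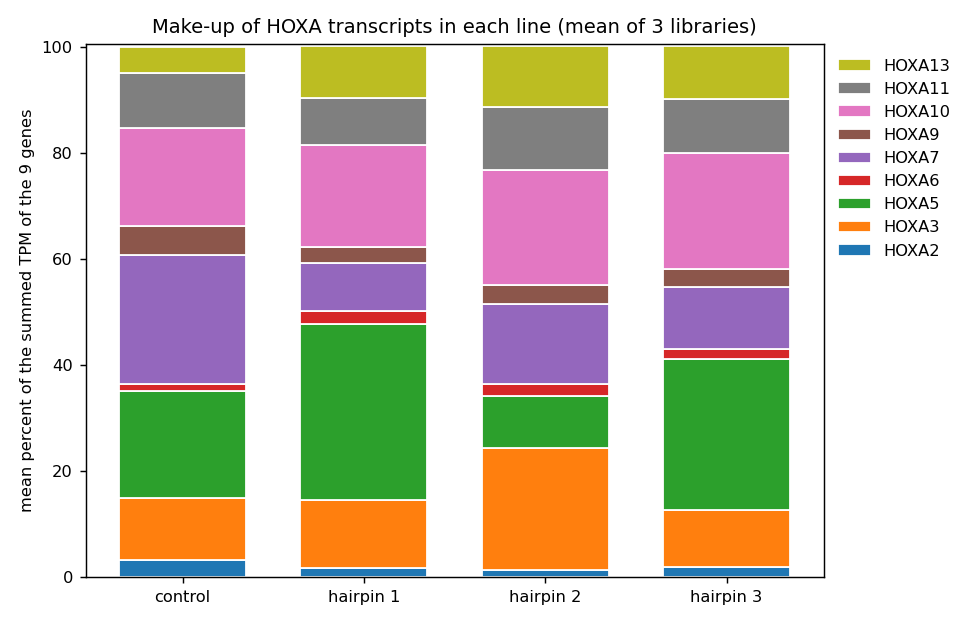
Mean percent of the summed TPM of the 9 HOXA genes taken by each gene in each line (3 libraries), stacked in cluster order from HOXA2 at the bottom. HOXA5 is 33.2% and 28.6% with hairpins 1 and 3 but 9.91% with hairpin 2, where HOXA3 is 23.0%.

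Across the 12 libraries, which share 4 lines and are not independent, Pearson's r of log2 CPM described how far members moved together. HOXA11 and HOXA13 had r = 0.975, HOXA6 and HOXA13 0.974, HOXA10 and HOXA11 0.958, and HOXA10 and HOXA13 0.952. HOXA3 went with HOXA13 at 0.913, but with HOXA2, next to it in cluster order, at 0.0537 and with HOXA5 at 0.326. In the annotation the 5′ ends of HOXA2 and HOXA3 lie 49770 bp apart. The HOXA3 gene spans 46398 bp and takes in HOXA5 and HOXA6. HOXA2 and HOXA5 went together at 0.869, and both were low with hairpin 2. HOXA7 had no r above 0.657. Cluster order therefore did not order these values in all cases, and the distance between 5′ ends was not set against r.

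**Figure D4:**
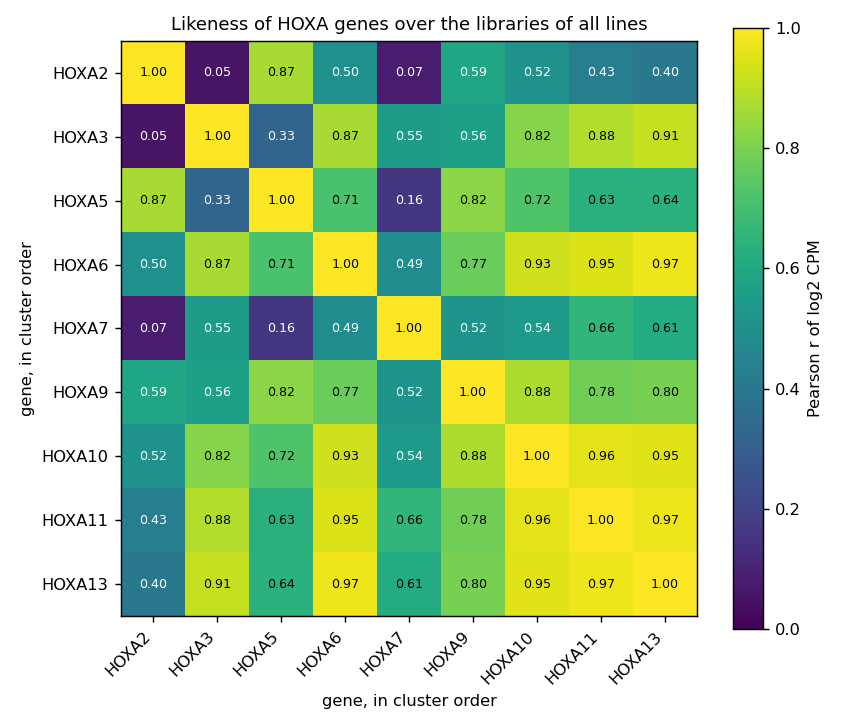
Pearson's r of log2 CPM over 12 libraries of 4 lines between each pair of the 9 HOXA genes, in cluster order on both axes, with colour and number giving r. HOXA6, HOXA10, HOXA11 and HOXA13 form a block with r of 0.926 to 0.975, while HOXA2 with HOXA3 has 0.0537.

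Genes outside the HOX clusters were ranked by the same r, among 12107 tested genes with a mean of at least 1 CPM. The 5 nearest to HOXA5 were RIOX1, KRT20, NCOA5, SLBP and CBX2 (r from 0.977 to 0.984). KRT20, a keratin of the gut epithelium, averaged 10.9, 47.4, 7.62 and 32.9 CPM in the control line and with hairpins 1, 2 and 3. CBX2, a Polycomb subunit, averaged 26.2, 50.4, 21.9 and 49.6. The 5 nearest to HOXA10 were ISL1, SCG2, PHAX, EGLN3 and PAIP2 (0.960 to 0.978), of which SCG2, a secretory granule protein, averaged 1.54, 13.2, 11.8 and 12.5 CPM. The 5 nearest to HOXA3 were PREP, TGIF2, IDI1, TSHZ1 and AP5B1 (0.985 to 0.993). TSHZ1, a zinc finger factor, averaged 22.8, 107.0, 174.0 and 88.3 CPM. In all, 182, 97 and 449 genes had an r of at least 0.9 with HOXA5, HOXA10 and HOXA3.

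In the other HOX clusters rises were fewer. Of 9 tested HOXB genes, 0 were higher and 5 lower with each hairpin, with medians of -0.41, -0.68 and -0.41. Of all tested genes, 31.5%, 36.6% and 23.6% were called higher and 31.5%, 37.8% and 24.0% lower with hairpins 1, 2 and 3. HOXB9, the HOXB gene with the smallest p among the lines, averaged 381 ± 25.3 CPM in the control line and 243 ± 6.92, 172 ± 0.922 and 242 ± 19.2 with hairpins 1, 2 and 3. HOXB7 fell by 1.35, 0.92 and 0.95 on the log2 scale. HOXB3 gave 0.08, -0.22 and -0.01, none called, while its paralog HOXA3 rose with each hairpin. Of 8 tested HOXC genes, 1, 2 and 1 were higher and 1, 2 and 0 lower, with medians of -0.30, -0.18 and 0.01. HOXC13 fell by 1.99 ± 0.23 with hairpin 2 (adjusted p = 1.04e-05), where its paralog HOXA13 rose. None of the 6 HOXD genes in the table passed the filter, and they summed to at most 0.24 TPM. The difference between clusters was not tested.

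**Figure D5:**
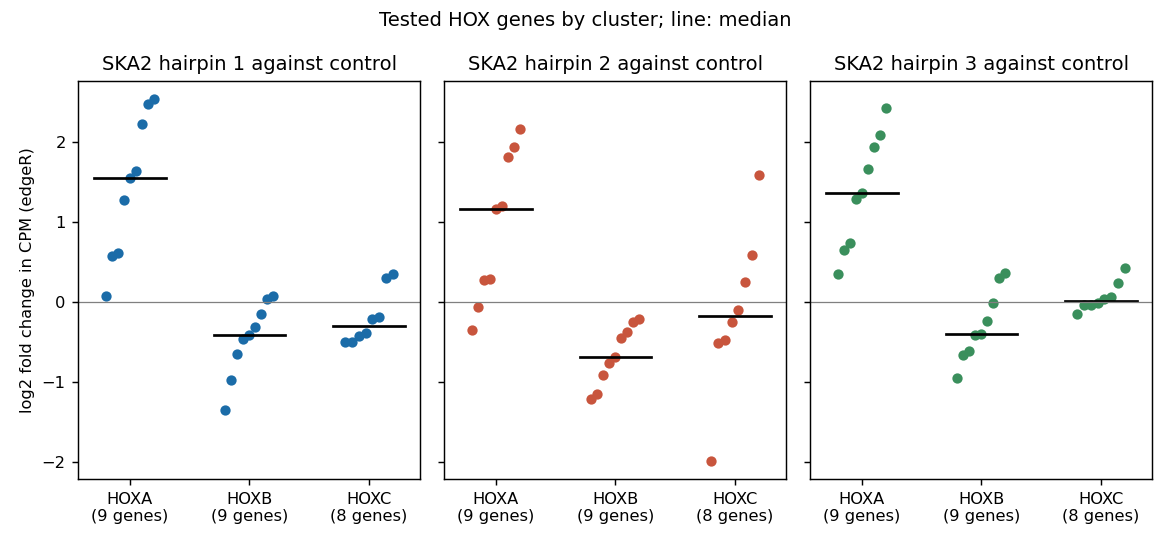
Log2 fold change in CPM (edgeR) of each tested HOX gene with each hairpin against the control line, by cluster, with a line at the median; genes are spread sideways in order of value. HOXA medians are 1.55, 1.15 and 1.36, against -0.41, -0.68 and -0.41 for HOXB and -0.30, -0.18 and 0.01 for HOXC.

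Around the cluster, 10 flanking genes were tested. With hairpins 1, 2 and 3 the test called 3, 4 and 3 of them higher, and 3, 5 and 3 lower. Among all tested genes, 31.5%, 36.6% and 23.6% were higher and 31.5%, 37.8% and 24.0% lower. SKAP2, an adaptor of Src family kinases on the HOXA2 side of the cluster, rose by 0.98 ± 0.14, 1.09 ± 0.14 and 0.58 ± 0.14 (adjusted p = 0.000203, 2.93e-05 and 0.00642). EVX1, a homeobox gene 42593 bp beyond HOXA13, averaged 0.788 ± 0.266 CPM in the control line. It gave -0.07, -0.91 and 0.31, of which only the hairpin 2 value was called (0.0381). CREB5, a basic leucine zipper factor farther out, fell by 1.04, 1.04 and 1.16. These 3 were chosen after their values were seen.

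TALE cofactors did not move as a group: 3, 4 and 3 of 8 were higher and 2, 2 and 1 lower, with medians of 0.02, 0.19 and 0.0002. Shares over all tested genes were 31.5%, 36.6% and 23.6% higher and 31.5%, 37.8% and 24.0% lower. PBX3 fell by 0.93 with hairpin 1 and by 0.82 with hairpin 3 and rose by 0.33 with hairpin 2. MEIS2 rose by 1.06 with hairpin 2 and gave -0.08 and -0.15, not called, with the others. MEIS1, a leukaemia partner of HOXA9, rose by 0.60, 0.93 and 0.80.

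Among transcription factors of the gut, GATA6 rose by 0.39, 1.05 and 0.47 and SOX2 by 2.05, 1.16 and 2.37. GATA4 fell by 0.35 with both hairpins 1 and 3 and was not called with hairpin 2 (-0.12). SOX2, a foregut and stomach factor, averaged 1.32 ± 0.0842 CPM in the control line and 5.48 ± 0.546, 2.95 ± 0.396 and 6.86 ± 0.547 with the hairpins. CDX2, the intestinal regulator of posterior HOX genes, was near 0 and was not tested.

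Of 13 tested retinoic acid genes, 5, 6 and 5 were higher and 4, 5 and 5 lower. Over all tested genes the shares were 31.5%, 36.6% and 23.6% higher and 31.5%, 37.8% and 24.0% lower. CYP26A1, which degrades retinoic acid and is itself induced by it, averaged 0.745, 5.25, 1.29 and 5.17 CPM in the control line and with hairpins 1, 2 and 3. It rose by 2.80 ± 0.20, 0.79 ± 0.25 and 2.78 ± 0.20 (adjusted p at most 0.0131). RARB, a receptor and likewise a target of retinoic acid, rose by 2.21, 0.59 and 1.54. RDH10, which makes the precursor of retinoic acid, rose by 0.71, 1.34 and 0.65. CRABP2, a retinoic acid carrier, fell by 0.86, 2.37 and 1.15.

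Chromatin regulators moved in both directions. The shares of all tested genes were 31.5%, 36.6% and 23.6% higher and 31.5%, 37.8% and 24.0% lower with hairpins 1, 2 and 3. Of 11 tested genes of Polycomb repressive complex 2, 5, 6 and 5 were higher and 4, 4 and 4 lower. Its accessory subunits JARID2 and MTF2 rose with each hairpin, by 1.11, 1.36 and 0.52 and by 0.95, 0.89 and 0.98, while PHF19 fell by 0.40, 1.96 and 0.34. Of 19 genes of Polycomb repressive complex 1, 11, 8 and 8 were higher and 6, 6 and 5 lower. CBX2 rose by 0.94 and 0.92 with hairpins 1 and 3 and fell by 0.26 with hairpin 2. Of 18 genes of the MLL complexes and DOT1L, 9, 11 and 5 were higher and 2, 6 and 2 lower. DOT1L, a histone H3 methyltransferase, rose by 0.46, 0.87 and 0.22. Of 12 CTCF and cohesin genes, 10, 7 and 7 were higher and 1, 0 and 0 lower, with medians of 0.65, 0.48 and 0.43. NIPBL, the cohesin loader, rose by 0.90 ± 0.22, 1.62 ± 0.22 and 0.70 ± 0.22 (adjusted p at most 0.0195). The length trend of the libraries was also higher in each hairpin 1 and hairpin 2 library than in each control library, and its part in these counts was not tested.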

How the data were processed

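RNA was measured in 12 libraries of 4 SNU638 lines, grouped by sample title. Per the labels' protocols, polyadenylated RNA was fragmented and primed at random, with no strand step named. The submitters' processing notes name the build GRCh38.p13 and the tools RSEM, HISAT, Bowtie2 and DESeq2, whose roles and versions the sources used here do not give. Per gene, the authors deposited expected counts, FPKM and TPM. FPKM and the authors' average columns were not used. The TPM deposited by the authors serve for levels between genes.

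Expected counts were rounded (all 108 values of the 9 genes were whole) and fitted with edgeR 4.0.16 in R 4.3.3: TMM scaling, filterByExpr on the 4 groups, 1 quasi-likelihood fit of the 12 libraries together (residual degrees of freedom: 8), and F tests with Benjamini-Hochberg adjustment over 12868 genes, called under 0.05. A standard error is the log2 fold change divided by the square root of F. CPM uses the scaled totals. The fit was run on simulated counts with 200 of 12868 genes changed 2-fold in hairpin 1 only. It recovered 88.5% of them and called 0.0947% of unchanged genes. Far fewer genes changed there than were called here, and no length trend or library standing apart was simulated. Performance under those conditions was not tested. Depth was 14693343 to 16739155 counts per library, and intervals between libraries cover no other source of error.

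Alternatives were limma 3.58.1 on TPM, DESeq2 1.42.0, DESeq2 size factors, no filter, fits of 2 lines, a replicate block, a length offset and leaving out libraries. Deviations from the line mean of same-numbered control and hairpin 3 libraries had r = 0.728, 0.17 and 0.6. Control library 3 with hairpin 3 library 2 had 0.391, and control library 2 with hairpin 3 library 3 had 0.23. The first libraries thus deviated together, but libraries 2 and 3 were not matched by number, so this check does not settle a pairing. In other pairs of lines, same-numbered libraries did not deviate together.

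The 9 genes and all gene lists were chosen with earlier results of these data known. Named genes are the 9, HOXA4 and SKA2, up to 4 genes per list with the smallest p among the lines, and for HOXA5, HOXA10 and HOXA3, the highest in mean TPM, the 5 non-HOX genes most like them. Chosen after their values were seen, HOXB3, MEIS1, SKAP2, EVX1 and CREB5 fall outside that rule. Some items that the rule would name are not reported here.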

Additional observations from a re-analysis of the deposited data

Results flagged for a closer look

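The 13 differences of HOXA genes between hairpin lines that passed edgeR's test (adjusted p under 0.05) are listed because each compares 2 SKA2 hairpins directly. Values are log2 fold changes. With hairpin 2 against hairpin 1 they were -2.28 for HOXA5, -0.93 for HOXA2, -0.72 for HOXA6, -0.35 for HOXA10, -0.31 for HOXA13 and 0.30 for HOXA3. With hairpin 3 against hairpin 2 they were 1.99 for HOXA5, 1.01 for HOXA2, 0.47 for HOXA10, 0.45 for HOXA9, 0.27 for HOXA13 and -0.64 for HOXA3. With hairpin 3 against hairpin 1 the only one was -0.34 for HOXA3. Of the 9, 1 was higher and 5 lower with hairpin 2 against hairpin 1, beside 28.2% and 29.4% of all tested genes. With hairpin 3 against hairpin 2, 5 were higher and 1 lower, beside 33.4% and 31.9%. With hairpin 3 against hairpin 1, 0 were higher and 1 lower, beside 4.75% and 4.7%. The calls of HOXA9, HOXA10 and HOXA13, and that of HOXA3 with hairpin 3 against hairpin 1, were lost in some alternatives, as given above. A stable line and its hairpin cannot be told apart.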

How the results depend on the processing

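DESeq2 size factors, no filter on low counts and the replicate block changed 0 of 13 counts of called HOXA genes and 0 of 54 single values. The replicate block in a fit of the control and hairpin 3 lines alone, added after seeing the data, left 9 of 9 higher. Beside the lost calls against the control line given above, HOXA2 missed the threshold in fits of 2 lines with hairpin 1 (adjusted p = 0.07) and hairpin 3 (0.0614), and with hairpin 1 without the first control and first hairpin 3 library (0.0646). With only those 2 libraries of their lines, HOXA2 with hairpin 3 (0.051) and HOXA7 with hairpins 2 (0.156) and 3 (0.157) missed it. Counts moved as follows. With hairpin 2 against hairpin 1, 2 genes instead of 1 were higher in the fit of 2 lines, with the length offset, without the first control and first hairpin 3 library, and with only those libraries of their lines. With hairpin 3 against hairpin 1, leaving out 1 library gave 0 to 1 higher and 0 to 2 lower, against 0 and 1. Without the first control and first hairpin 3 library, 1 was higher and 2 lower, and with only those libraries 2 were lower. Lower genes numbered 3 and 2 in limma on log2(TPM + 1) and log2(TPM + 0.1), 0 in the fit of 2 lines and 3 with the length offset. With hairpin 3 against hairpin 2, limma called 2 higher in place of 5 on both scales.

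Signs turned as follows, with limma at pseudocounts 1 and 0.1 given in that order. In hairpin 2 against control, HOXA2 became 0.0669 and 0.0986, and 0.1555 with the length offset, and HOXA5 became 0.3458 and 0.3679, and 0.4473 with the offset. In hairpin 3 against hairpin 1, HOXA2 became -0.1046 and -0.1284, HOXA9 -0.0912 and -0.1048, HOXA10 -0.1047 and -0.107, and HOXA11 -0.1219 and -0.1274. There the offset gave HOXA2 -0.0655 and HOXA13 0.1332. In hairpin 3 against hairpin 2, HOXA6 became -0.0143 and -0.0203, HOXA7 -0.1981 and -0.206, HOXA11 -0.0623 and -0.0649, and HOXA13 -0.0119 and -0.0131, with offsets of -0.1593 for HOXA6 and -0.1513 for HOXA7. With only the first control and first hairpin 3 library, HOXA7 became -0.0325 (hairpin 1 against control), and HOXA11 -0.0099 and HOXA13 0.093 (hairpin 3 against hairpin 1). Leaving out 1 library turned 3 values of hairpin 3 against hairpin 1: HOXA2 to -0.0532 (hairpin 1 library 3; range over libraries -0.0532 to 0.1916), HOXA9 to -0.0173 (hairpin 3 library 2; to 0.2074) and HOXA13 to 0.0068 (hairpin 3 library 3; from -0.0914). Of these, only HOXA13 in hairpin 3 against hairpin 2 was called in edgeR. The cause was not tested. At 4 to 7 control counts of HOXA6 and 25 to 39 of HOXA2, depth limits those values most.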
